A study of Mus musculus with 4 samples.

Results

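Eph receptors are receptor tyrosine kinases of the cell surface that bind ephrins on neighbouring cells. The 10 members described here are the genes Epha3, Epha4, Epha5, Epha6, Epha7, Epha8, Ephb1, Ephb2, Ephb3 and Ephb6, which were matched by gene symbol in 2 tables of transposon insertion reads. Together the tables listed 5614 genes, and 8 of the 10 members were among them. Every member found carried RefSeq transcripts of the Eph gene of that name. Epha1, Epha2, Epha10 and Ephb4 are the other genes of the mouse family, which makes 14, and they are given beside the members.

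The study mapped insertions in mutant pools of neural stem cell-like cells that are haploid, from mice of a 129Sv background. Such cells carry a single chromosome set, so a disrupted gene has no second copy. All cells were differentiated from haploid embryonic stem cells through embryoid bodies in a medium with FGF2, EGF, the inhibitors LDN193189 and SB431542 and a ROCK inhibitor (Y-27632, Thiazovivin or both), then given a gene trap transposon (piggyBac) together with its transposase, and selected with G418. The 4 samples of genomic DNA form library 1 and library 2, with 2 samples in each, and the labels give no treatment, time or genotype that differs between them. Splinkerette PCR, a nested PCR on adapter-ligated DNA, amplified the junctions of transposon and genome for sequencing. Each table pools its 2 samples, so no value has a replicate check and no test between the libraries was made.

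Each table gives 2 whole-number counts per gene, the nonredundant and the redundant reads. Library 1 held 55442 nonredundant and 877870 redundant reads over 4184 genes, and library 2 held 48750 and 1300140 over 3168 genes. A gene that a table does not list has no reads there. Reads are PCR products without molecular identifiers, so they cannot be taken as counts of insertions or cells. How nonredundant reads were defined is not given. Every interval below is an exact 95% interval that treats reads as independent and covers counting error only. Redundant reads may be copies of each other, so their intervals can be too narrow. The same can hold for nonredundant reads, whose independence is not known. Single reads are weak evidence of an insertion, and most listed genes had no more than that, 53.7% of them in library 1 and 59.7% in library 2. Y-linked genes were listed at up to 2 reads in each library, 3 of 78 in library 1 and 7 of 78 in library 2.

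When an Eph receptor meets an ephrin, clustering activates its kinase and signals pass both into the cell with the receptor and, in reverse, into the cell with the ephrin. A-class receptors bind mostly lipid-anchored ephrin-A ligands and B-class receptors mostly transmembrane ephrin-B ligands, with Epha4 known to bind both kinds. In the nervous system the family is known for repelling axons at boundaries, shaping synapses and regulating neural stem cells of the adult subventricular zone.

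Reads in the family were concentrated in Epha4 and Ephb1. These genes held 98.5% of the nonredundant reads of the 10 members in library 1 and 96.9% in library 2. Epha4 had many reads in library 1 and hardly any in library 2, while Ephb1 had many in both. All 10 members together summed to 1054 nonredundant reads in library 1, or 1.90% of the library (1.79 to 2.02), and to 699 in library 2, or 1.43% (1.33 to 1.54). Without Epha4 and Ephb1, the other 8 members summed to 16 and 22 reads in libraries 1 and 2. The median member had 1.5 reads in library 1 and 2.0 in library 2.

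**Figure D1:**
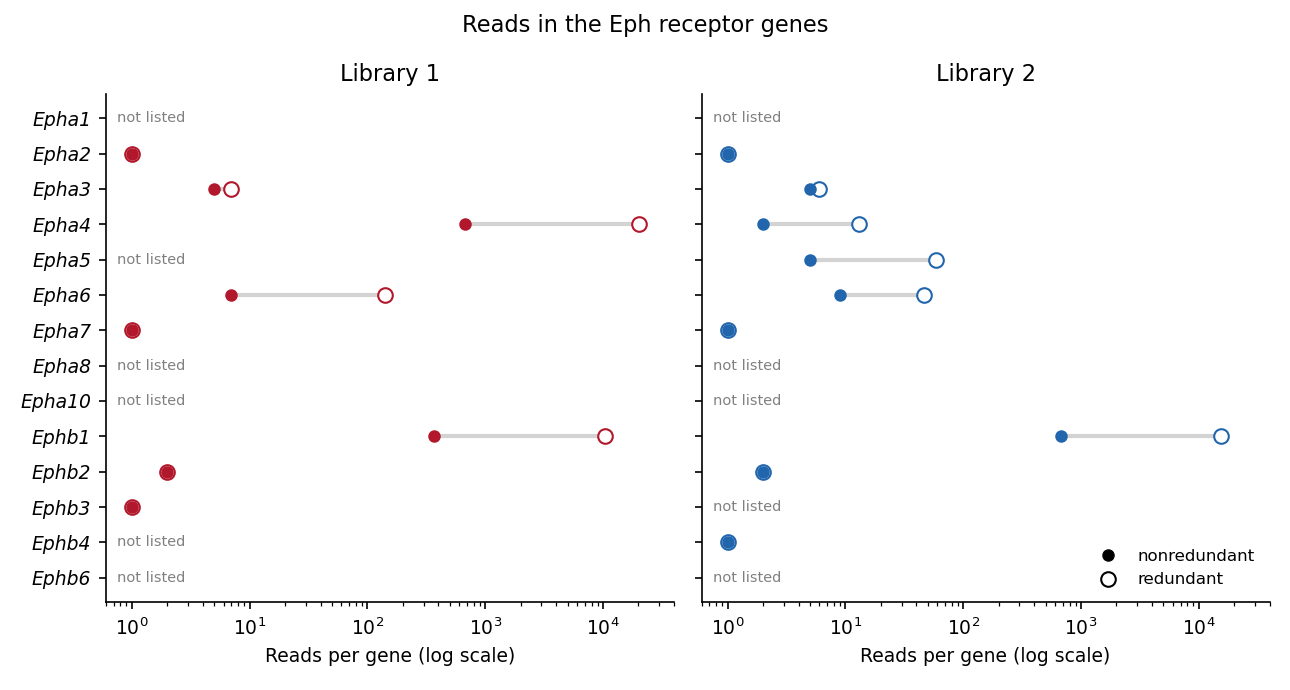
Nonredundant (filled) and redundant (open) reads per gene on a log axis for the 14 Eph family genes, with library 1 on the left and library 2 on the right. Epha4 in library 1 and Ephb1 in both libraries stand at 370 to 675 nonredundant reads, and no other gene of the family exceeds 9.

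Among the A-class receptors, Epha4, which guides corticospinal axons away from the midline, had 668 nonredundant reads in library 1 and 2 in library 2. Its share was 1.20% of library 1 (1.12 to 1.30) and 0.00410% of library 2 (0.000497 to 0.0148). It ranked 9 of 4184 genes in library 1, and in library 2 it was tied with 520 other genes at 2 reads. The intervals of the 2 shares lie far apart. The share in library 1 was 294 times that in library 2 (81.0 to 2430), a ratio whose wide interval comes from the 2 reads of library 2. Redundant reads stood at 20113 in library 1 and 13 in library 2, a ratio of shares of 2291 (1340 to 4304).

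Epha6, the longest gene of the family, had 7 nonredundant reads in library 1 and 9 in library 2. Epha3 had 5 in each library. Epha6 and Epha3 were thus present in both pools at similar low counts, with ratios of shares of 0.684 (0.216 to 2.06) and 0.879 (0.202 to 3.82), library 1 over library 2. In redundant reads, however, Epha6 had 141 in library 1 and 46 in library 2, which turned its ratio to 4.54 (3.23 to 6.48). These stand on 7 and 9 nonredundant reads, so that interval can be too narrow. Epha3 kept low redundant counts, 7 in library 1 and 6 in library 2.

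Epha5, a receptor of ephrin-A ligands in the retinotectal map, was not listed in library 1 and had 5 nonredundant and 59 redundant reads in library 2. Set against a floor of 3 reads in library 1, its share was 1.90-fold lower there by nonredundant reads and 13.3-fold lower by redundant reads. These values leave out counting error. The intervals of its nonredundant shares overlap, 0 to 0.00665% in library 1 and 0.00333% to 0.0239% in library 2. The 59 redundant reads stand on 5 nonredundant reads and may be copies of each other. Epha7, known in cortical development, had 1 nonredundant and 1 redundant read in each library. Epha8 was listed in neither library. Over the whole A class, 5 of 9 genes were listed in library 1 and 6 of 9 in library 2, against 19.9% and 15.0% of all genes. Epha2, a receptor best known from epithelia, had 1 read in each library, while Epha1 and Epha10 had none.

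Among the B-class receptors, Ephb1, which directs retinal axons that stay on the same side at the optic chiasm, had 370 nonredundant reads in library 1 and 675 in library 2. It held 0.667% of library 1 (0.601 to 0.739) and 1.38% of library 2 (1.28 to 1.49). It ranked 27 in library 1 and 9 in library 2. Ephb1 was therefore among the genes with most reads in both pools, although its share in library 1 was 0.482 times that in library 2 (0.423 to 0.548). In redundant reads, 10304 in library 1 and 15525 in library 2, the shares were 1.17% and 1.19%, a ratio of 0.983 (0.959 to 1.01). The nonredundant counts thus put Ephb1 lower in library 1, and the redundant counts put it at nearly the same share in both.

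Ephb2, a receptor that associates with NMDA receptors at synapses, had 2 nonredundant and 2 redundant reads in each library. Ephb3, which acts with Ephb2 in positioning cells of the intestinal crypt, had 1 read in library 1 and none in library 2. Ephb6, a receptor without kinase activity, was listed in neither. Ephb4, the receptor of venous endothelium, was not listed in library 1 and had 1 read in library 2. Of the 5 B-class genes, 3 were listed in each library, against 19.9% and 15.0% of all genes in libraries 1 and 2. Ephb1 held nearly all of their 373 reads in library 1 and 678 in library 2.

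**Figure D2:**
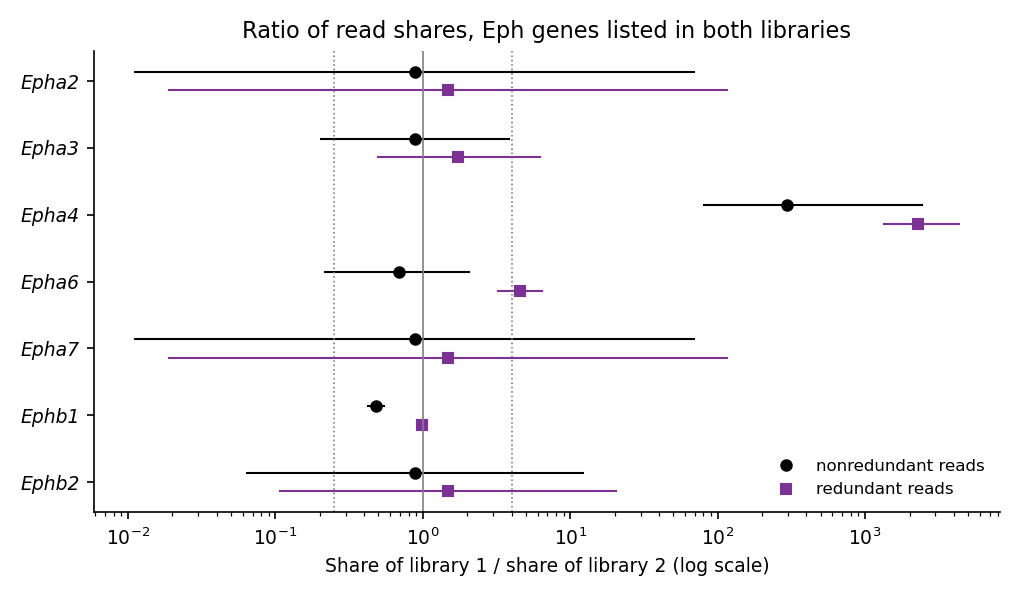
Ratio of read shares, library 1 over library 2, on a log axis for the 7 Eph genes listed in both libraries, with exact 95% intervals for nonredundant (black circles) and redundant reads (purple squares). The solid line marks equal shares and the dotted lines 4-fold differences. The interval of Epha4 lies wholly above 4-fold by both counts, and that of Ephb1 lies below 1 by nonredundant reads (0.482) and includes 1 by redundant reads (0.983).

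Counted at 1 read or more, 7 of the 10 members were listed in library 1 and 7 in library 2, with 6 in both. Over the 21035 mouse genes with curated protein-coding transcripts, 19.9% were listed in library 1, 15.0% in library 2, 8.25% in both and 26.6% in either. The members were picked with these tables known, and most are long genes, so their higher share is a description and not a test. At 2 reads or more, 5 members remained in library 1 and 6 in library 2, against 9.19% and 6.07% of all genes. At 10 reads or more the members were Epha4 and Ephb1 in library 1 and Ephb1 alone in library 2, against 2.37% and 1.4% of all genes. At 100 reads or more the same genes remained, against 0.594% and 0.371%.

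With 1 pool per library, a difference was counted where a gene with at least 10 summed nonredundant reads had shares at least 4-fold apart, with an absent gene set to the floor of 3 reads. Epha3, Epha4, Epha6 and Ephb1 had that many reads. Epha4 passed as higher in library 1, and 0 members passed as lower there. Of all 822 genes with that many reads, 50.9% were higher and 30.5% lower in library 1 by this rule. A lopsided gene such as Epha4 was therefore common among well-read genes, and shares within 4-fold, as for Ephb1, were not. Of the 209 genes with at least 100 summed reads, 11 were within 4-fold and 71 were listed in a single library.

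The lower of the 2 library counts of Ephb1, 370 reads, ranked 1 among all 5614 genes. This measure was chosen after the values were seen. Just 4 genes, or 0.019% of the background, had 100 or more reads in both libraries, Ephb1 among them. By distance in log2 reads over the 2 libraries, among the 1738 genes listed in both, the genes nearest to Ephb1 included Cdh13, a cadherin gene with 224 and 243 reads, at a distance of 1.64. Nckap5 (114 and 212 reads) followed at 2.38, Dennd1b (97 and 101) at 3.35 and Oca2 (36 and 237) at 3.69. None lay closer than 1.10. The genes nearest to Epha4 were Dok6 (693 and 2 reads) at 0.0530, 1700113H08Rik (642 and 2) at 0.0573, Pawr (539 and 2) at 0.310, D6Wsu163e (949 and 2) at 0.507 and Tmem71 (509 and 1) at 1.07. All of these lay closer to Epha4 than any gene did to Ephb1. These distances rest on 2 values per gene.

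**Figure D3:**
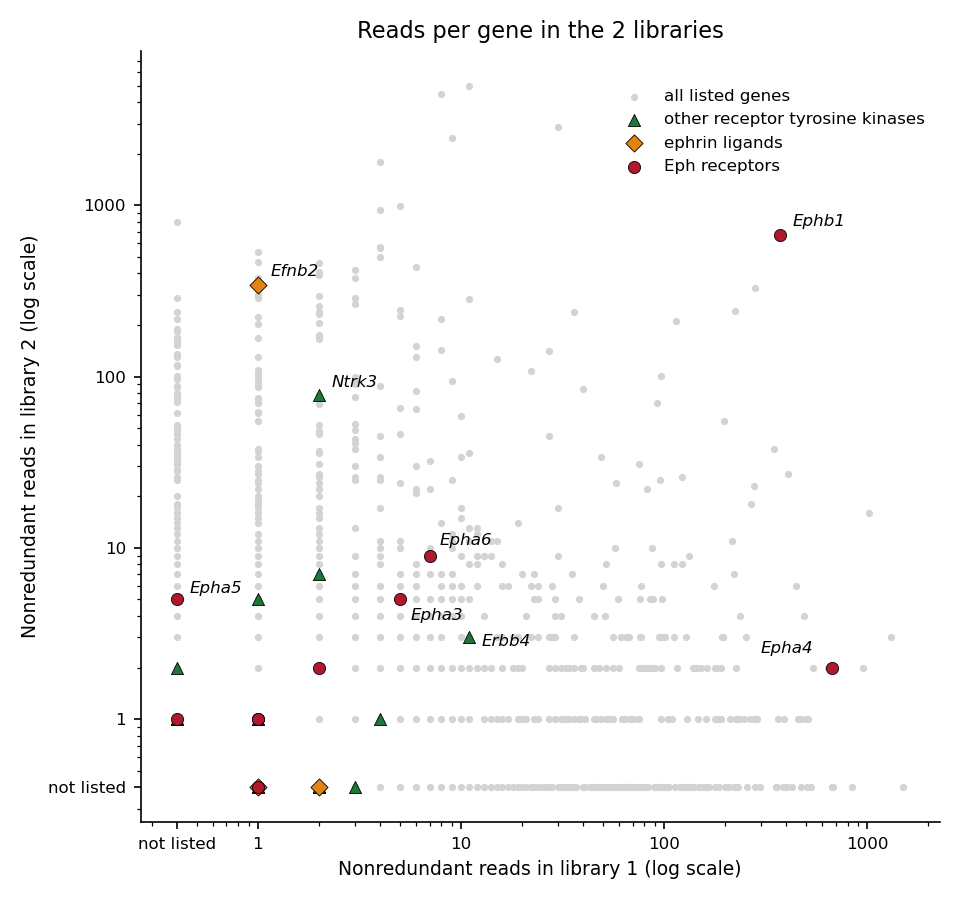
Nonredundant reads per gene in library 1 (x axis) and library 2 (y axis), both on log axes with a separate position for genes not listed; grey points are all listed genes, circles Eph receptors, diamonds ephrin ligands and triangles other receptor tyrosine kinases, and genes with equal counts share a point. Ephb1 lies furthest to the upper right, with 370 and 675 reads, while Epha4 and Efnb2 lie along opposite axes.

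The number of redundant reads per nonredundant read was high where Epha4 and Ephb1 had many reads. Epha4 in library 1 had 30.1 redundant reads per nonredundant read, and Ephb1 had 27.8 in library 1 and 23.0 in library 2. Genes with at least 10 nonredundant reads had a median of 4.53 in library 1 and 4.55 in library 2. Only 18 of the 499 such genes of library 1 exceeded Epha4 and 22 exceeded Ephb1, and 11 of the 294 in library 2 exceeded Ephb1. In these libraries both receptors were thus among the well-read genes with most redundant reads per nonredundant read. Epha4 in library 2 had 6.50 on its 2 nonredundant reads. Over the library totals the value was 15.8 in library 1 and 26.7 in library 2. Ephb1 in library 2, at 23.0, was thus below the value of its library total. Epha6 had 20.1 in library 1 and 5.11 in library 2, and Epha5 had 11.8 in library 2. In Epha7, Ephb2 and Ephb3 the 2 counts were equal.

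The long Eph genes were listed, and most of the short ones were not. The lengths are those of RefSeq on assembly GRCm38.p6, which differs from the build of the authors' alignment, and serve only to order genes. When the background was split into 10 classes by length, Epha3, Epha4, Epha5, Epha6, Epha7, Ephb1 and Ephb2 fell in the longest class, at 148 to 969 kb. All 7 were listed in at least 1 library, 6 in library 1 and 7 in library 2. Of all genes in this class, 71.7% were listed in library 1 (69.7 to 73.6), 58.3% in library 2 (56.2 to 60.5) and 81.7% in either. The other 7 genes of the family, 14.8 to 36.3 kb long, lay in the middle classes. In at least 1 library 3 of them were listed, 2 in library 1 and 2 in library 2, none above 1 read in a library. In the 3 classes that hold them, 9.89% to 20.3% of genes were listed in library 1, 6.75% to 15.9% in library 2 and 15.3% to 30.7% in either.

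Length did not order the read counts among the long genes. Epha4, the shortest of the 7, had 452 nonredundant reads per 100 kb in library 1 and 1.35 in library 2. Ephb1 had 85.5 in library 1 and 156 in library 2, whereas Epha6, the longest of them, had 0.722 and 0.928. Epha3, Epha5, Epha7 and Ephb2 lay between 0 and 1.56 in library 1 and between 0.648 and 1.56 in library 2. In the longest class, 3.38% of genes had 100 or more reads in library 1 and 1.90% in library 2.

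**Figure D4:**
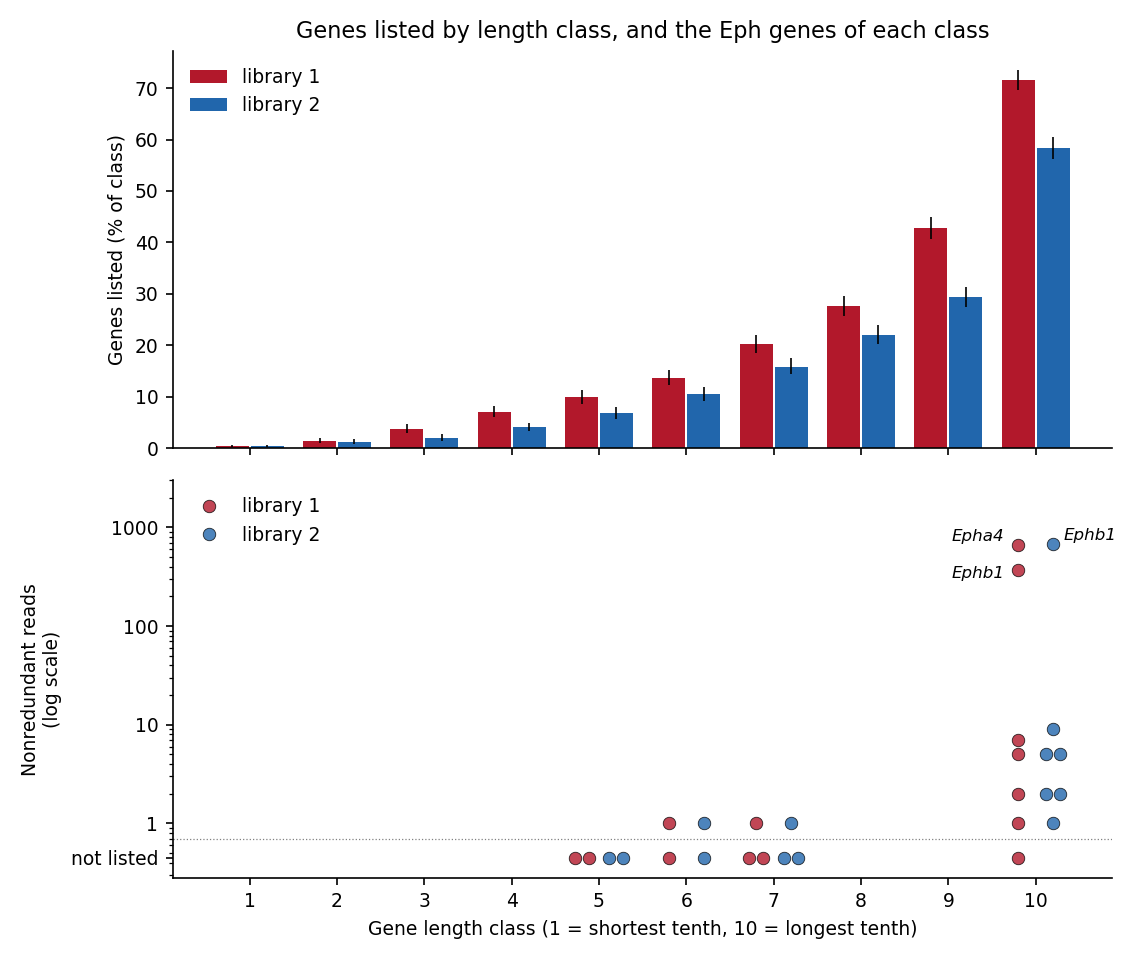
Above, the percent of genes in each of 10 length classes that were listed in library 1 (red) and library 2 (blue), with exact 95% intervals. Below, nonredundant reads of the 14 Eph genes on a log axis by class, with a separate position for genes not listed: the 7 genes of the longest class reach 675 reads, and the 7 shorter ones have 1 read or none.

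Genes next to Epha4 and Ephb1 carried few reads. On either side of Epha4 the nearest genes with any read were Speg, with 1 read in each library, and Pax3, with 0 in library 1 and 8 in library 2. For Ephb1 they were Ppp2r3a, with 2 in library 1 and 1 in library 2, and Ky, with 1 in library 1 and 0 in library 2. No other gene with curated protein-coding transcripts overlaps either receptor gene. The receptor genes, on chromosomes 1 and 9, thus stood alone with high counts among their neighbours. Epha8 and Ephb2 lie near each other on chromosome 4, with 3 unlisted genes between them.

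Among the 8 ephrin ligands, Efnb2 was the gene with many reads. It encodes ephrin-B2, a transmembrane ligand of B-class receptors and of Epha4. It had 1 nonredundant read in library 1 and 344 in library 2, where it held 0.706% of the library (0.633 to 0.784) and ranked 23. Its share in library 1 was 0.00256 times that in library 2 (6.45e-05 to 0.0143), the opposite lean to Epha4. Redundant reads were 27 in library 1 and 2058 in library 2. At 44.0 kb Efnb2 is short beside the well-read receptors.

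The lipid-anchored ligands Efna5 and Efna2 had 2 and 1 reads in library 1 and were not listed in library 2. Efna1, Efna3, Efna4, Efnb1 and Efnb3 were listed in neither. Thus 3 of 8 ligand genes (37.5%) were listed in library 1 and 1 of 8 (12.5%) in library 2, against 19.9% and 15.0% of all genes, and the median ligand had 0 summed reads, as did the median of all background genes.

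Most genes that act after the receptors had few reads or none. Of 13 GTPase regulators coupled to Eph receptors, 4 (30.8%) were listed in library 1 and 8 (61.5%) in library 2, against 19.9% and 15.0% of all genes. In this list 7 of the 13 genes were in the longest class. Of all genes in that class, 71.7% were listed in library 1 and 58.3% in library 2. None of the 13 had 10 reads or more in a library, and their median was 1 summed read. Vav3, a guanine nucleotide exchange factor, led the list with 5 reads in library 1 and 1 in library 2. Kalrn, another exchange factor, and Chn1, the chimaerin needed for Epha4 signalling in axons, had 1 read in each library. Arhgef15, an exchange factor of the ephexin group, had 0 in library 1 and 2 in library 2, and Sipa1l1, a Rap regulator, had 2 in library 1 and 0 in library 2.

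Of 21 adapters, kinases and phosphatases of Eph signalling, 10 (47.6%) were listed in library 1 and 6 (28.6%) in library 2. Over all genes these shares were 19.9% and 15.0%. The 21 genes had a median of 1 summed read, and 8 were in the longest class. Abl1, a cytoplasmic tyrosine kinase, had 22 reads in library 1 and 6 in library 2. Ptk2, the focal adhesion kinase, had 3 and 2, Anks1b 5 and 0, the receptor phosphatase gene Ptpro 3 and 1, and the Src family kinase gene Fyn 4 and 0. Among 6 genes for ephrin processing and PDZ partners, 3 were listed in library 1 and 1 in library 2, against 19.9% and 15.0% of all genes. Of these 6 genes, 2 were in the longest class. Grip1, a scaffold that binds the tail of ephrin-B proteins, had 38 reads in library 1 and 5 in library 2, a ratio of shares of 6.68 (2.63 to 21.8). The protease gene Adam10 had 3 and 0, and Grip2 had 1 and 0, while Pick1, Rgs3 and Sdcbp were listed in neither.

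The other receptor tyrosine kinases give the nearest comparison. Of 44 such genes, 21 (47.7%) were listed in library 1 and 13 (29.5%) in library 2. Over all genes these shares were 19.9% and 15.0%. The 44 genes had a median of 1 summed read against 4.5 for the 10 members. The members were chosen with these data known, and the 4 Eph genes outside them had a median of 0.5. Of the other receptor tyrosine kinases, 13 of 44 were in the longest class, against 7 of 10 members. The highest counts were those of Ntrk3, a neurotrophin receptor, with 2 reads in library 1 and 78 in library 2, and Erbb4, a neuregulin receptor, with 11 and 3. Ror1 had 2 and 7 reads, Ntrk2 1 and 5 and Alk 4 and 1. The highest count of the 44 genes, 78 reads, was below those of Epha4 in library 1 and of Ephb1 in both libraries.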

How the data were processed

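Per the submitters' processing notes, CASAVA, BWA and mouse build mm9 were used; no version, read assignment, filter or definition of nonredundant is given in the sources used here. The deposited tables hold raw read counts per gene, with 1 column per count and no sample name. The 2 samples pooled per library are those whose descriptions name its table. Genes were matched to RefSeq genes of GRCm38.p6 by transcript, then symbol or synonym (5612 of 5614). The background was the 21035 genes with curated protein-coding transcripts. Shares of all reads of a library have exact Clopper-Pearson intervals, and ratios of shares exact conditional intervals (Python 3.11.15, SciPy 1.17.1). The ratio intervals were checked on simulated independent reads at the nonredundant totals. That check cannot show how they perform for redundant reads or for reads that are not independent. No p-value was computed, since each library is 1 pool. The gene lists, written from general knowledge, and the members were chosen with earlier results of these data known. Named genes are all family and ligand genes, the 5 genes with most summed reads of each other list, the 5 nearest to Ephb1 and to Epha4, and neighbours with reads of family genes; some that this rule gives are not reported here. Alternatives changed the read type, read minima, fold, floor, totals and length classes.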

Additional observations from a re-analysis of the deposited data

How the results depend on the processing

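No paired analysis was possible because each table pools its samples in 1 column; for the same reason no sample could be left out. Redundant reads gave Epha4 2.29% of library 1, Ephb1 1.17% of library 1 and 1.19% of library 2, and a ratio of 0.983 for Ephb1, library 1 over library 2. They also put 2 members (Epha4 and Epha6) at least 4-fold higher and 1 (Epha5, at the floor) at least 4-fold lower in library 1, against 1 and 0 by nonredundant reads; of all 1505 genes with at least 10 summed redundant reads, 53.7% were higher and 26.6% lower. Without the 18 other genes that are among the 10 with most reads in either library, Epha4 held 1.42% of library 1, and Ephb1 0.786% of library 1 and 2.34% of library 2, a ratio of 0.335. At a 2-fold limit 1 of 4 members, Ephb1, was lower in library 1, as were 33.3% of the 822 genes. A minimum of 10 reads left 2 members in library 1 and 1 in library 2. With 20 length classes, 82.9% of the longest class was listed in library 1 and 73.7% in library 2, and it held 4 members. Without Ephb1, members of library 2 had 5.29 redundant reads per nonredundant read, against 22.4 with it. The causes of these shifts were not tested, beyond the smaller totals, stricter limits and narrower classes themselves. The higher share of Epha4 in library 1 kept its direction in all 7 alternatives run on its ratio or its 4-fold call. With 668 nonredundant reads against 2, changes of fold, minimum, floor or totals could not have reversed it. Those settings are therefore no check of the direction. Redundant reads could have differed, but they come from the same pools. Counting all 14 family genes, chosen after seeing the data, gave 8 listed in library 1 and 9 in library 2. Over all genes the listed shares were 19.9% and 15.0%. Counts of 1 to 9 reads limit every statement on the members other than Epha4 and Ephb1.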
